A study of Sus scrofa with 15 samples.

Results

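MX1 encodes an interferon-induced GTPase that blocks the replication of several viruses, and the genes described here are those whose signal in pig backfat followed it from animal to animal. A probe set was taken when it carried exactly 1 gene symbol and its Pearson r with the MX1 probe set was 0.80 or more over the 15 animals. MX1 itself and 12 other well-known interferon genes were left out (MX2, RSAD2, ISG15, IFI44L, IFIT1, IFIT2, IFIT3, OAS1, EIF2AK2, GBP1, GBP2 and TAP1). This gave 36 probe sets of 34 genes, out of 1434 probe sets that could have been taken and 3255 in all. Of the 3254 probe sets other than MX1, 2.7% had an r this high. The members were thus chosen by their measured log2 signals in these same animals, so every r with MX1 below is a description with no test.

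The tissue was the inner layer of the backfat of castrated male Iberian pigs, with 1 Affymetrix array for each of 15 animals. The 7 control animals had a standard diet and the 8 high-oleic animals a diet enriched in oleic acid, from 28 kg live weight until slaughter, and the labels give no age. Live weight at slaughter was 112.0 to 133 kg in control animals and 104.5 to 116 kg in high-oleic animals. Array medians lay between 6.38 and 6.67 on the log2 scale, and precision is limited by how many arrays there are. Of 12 fat cell markers only LEP, PNPLA2 and FASN were in the table, with LEP, which encodes leptin, between 10.29 and 12.52. The other 9 were not analysed here, so the labelled tissue was checked against these 3 alone.

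Type I and type III interferons can be secreted when a cell senses viral nucleic acid. They signal through receptor-bound kinases to a transcription factor complex that contains IRF9. This complex enters the nucleus and switches on genes that carry an interferon-stimulated response element. Interferon gamma raises antigen presentation as well. Fat tissue holds fat cells, vessels, fibroblasts and immune cells, and nearly all of these can answer interferon. In bulk tissue, more cells of a type and more RNA per cell cannot be told apart.

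MX1 was high in 2 animals, 1 on each diet. Its log2 signal was 12.71 for control animal 1 and 12.69 for high-oleic animal 2, against 7.88 to 9.49 in the 13 others, whose median was 8.50. In 35 of the 36 member probe sets both of these animals lay above each of the 13 others, which was so for 7.25% of all probe sets. Within each diet these 2 animals were the highest in all 36, so each highest value of a diet given below is theirs. The exception among the animals together was PSME2, for which control animal 1 had 9.91 and high-oleic animal 8 had 9.96. The height above the median of the 13 others exceeded 1 log2 unit in both animals for 34 members, against 5.53% of all probe sets, and exceeded 2 units for 21 members. As the rule chose the members by these same values, nothing is read from these counts. The median height over members was 2.43 for control animal 1 and 2.33 for high-oleic animal 2, or 5.39-fold and 5.08-fold. Over all 3255 probe sets the same medians were 0.0021 and -0.010.

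**Figure D1:**
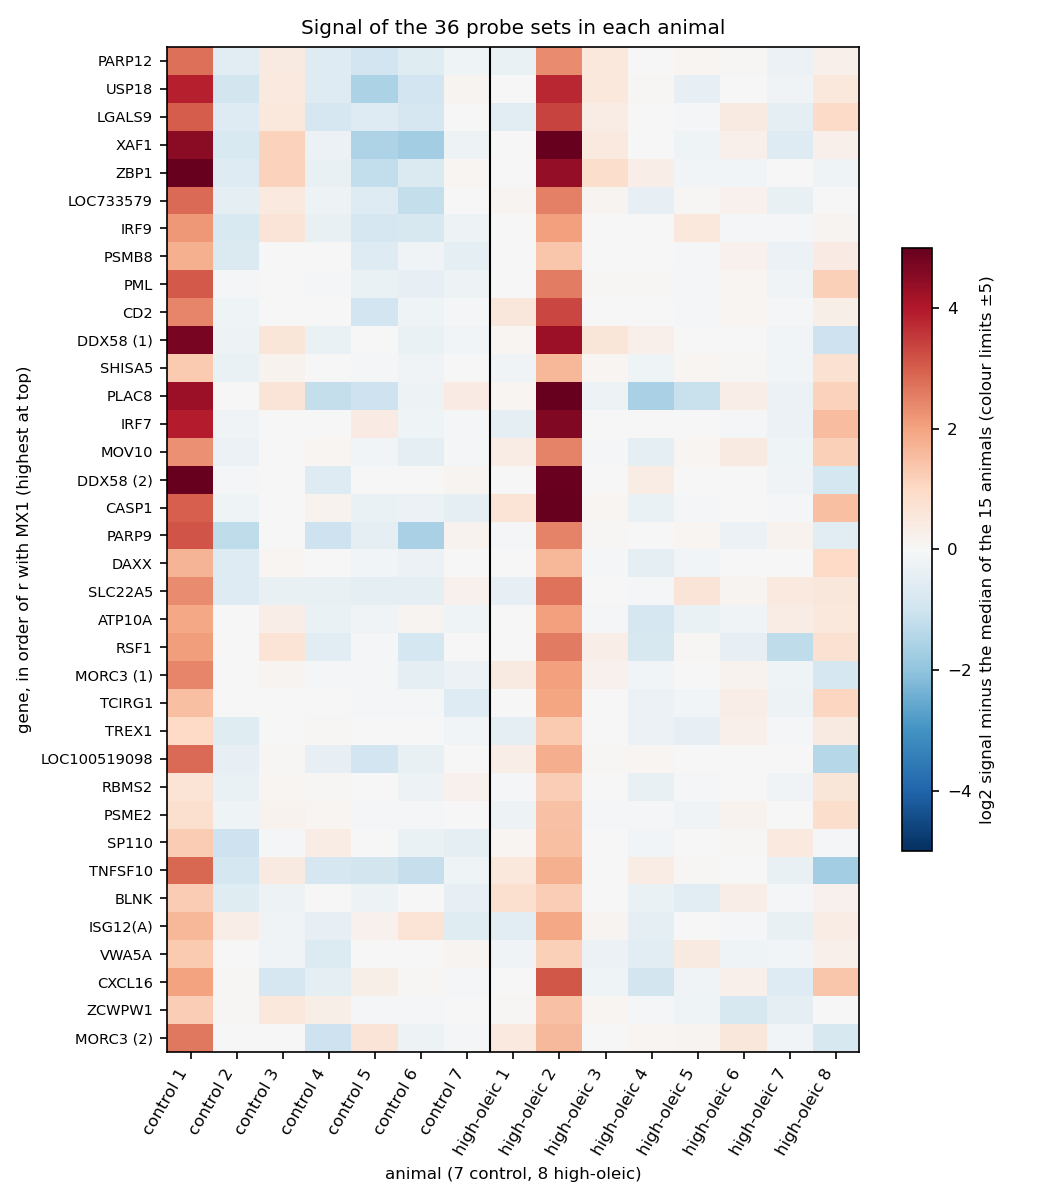
Log2 signal of the 36 member probe sets (rows, in order of r with MX1) in the 7 control and 8 high-oleic animals (columns), as the difference from the row's median over 15 animals, with colours limited at 5 log2 units. The columns of control animal 1 and high-oleic animal 2 are red throughout, and DDX58 and MORC3 have 2 rows each.

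Without these 2 animals, 4 of the 36 members still had an r of 0.80 or more with MX1: PARP12, LGALS9, XAF1 and USP18. Among all 3254 probe sets 0.246% did so, and no named gene outside the members did, other than the left-out ISG15. PARP12 had an r of 0.892 over the 13 animals, LGALS9 0.851, XAF1 0.818 and USP18 0.816. The 13 animals are part of the 15 that chose the members, so these values are descriptions too.

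PARP12 is a mono-ADP-ribosyltransferase with antiviral activity and had the highest r of all members, at 0.981 over 15 animals. In the control animals its log2 signal ran from 7.86 to 11.59 with a median of 8.28, and in the high-oleic animals from 8.49 to 11.20 with a median of 8.91. Control animal 1 and high-oleic animal 2 were 2.95 and 2.57 above the median of the 13 others, and the diets overlapped. Among the 13, the highest was high-oleic animal 3 and the lowest control animal 5. USP18 removes ISG15 from proteins and damps signalling at the type I interferon receptor. In the control animals its log2 signal ran from 5.78 to 11.25 with a median of 6.70, and in the high-oleic animals from 6.94 to 11.14 with a median of 7.38. The top 2 animals were 3.91 and 3.80 above the median of the rest, and the next highest value in any animal was 7.89.

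LGALS9 encodes galectin-9, a sugar-binding protein that interferon induces in several cell types. In the control animals its log2 signal ran from 3.31 to 7.17 with a median of 3.51, and in the high-oleic animals from 3.59 to 7.52 with a median of 4.34. Its 2 high animals stood 3.06 and 3.40 above the median of the others, with the diets overlapping. XAF1 binds the apoptosis inhibitor XIAP and promotes cell death. In the control animals its log2 signal ran from 3.39 to 9.65 with a median of 4.86, and in the high-oleic animals from 4.49 to 10.47 with a median of 5.27. Its height of 4.70 and 5.53 came to 26.1-fold and 46.2-fold, the largest of these 4 genes in both animals. The rank correlation of XAF1 with MX1 was also the highest of the 36, at 0.950 over 15 animals and 0.929 over 13.

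The r of the 4 genes with MX1 was also computed within each diet, over few animals. As the 4 were picked by their r over these same 13 animals, the values are descriptions and no added support. In the 6 control animals other than number 1, r was 0.890 for PARP12, 0.866 for LGALS9, 0.788 for XAF1 and 0.744 for USP18. In the 7 high-oleic animals other than number 2 it was 0.778, 0.762, 0.895 and 0.803 in the same order, so none of the 4 reached 0.80 in both diets. Members outside the 4 also reached such values within 1 diet. IRF9 had 0.924 and the main DDX58 probe set 0.908 in these control animals, and RSF1 had 0.824 in these high-oleic animals. Among the 4 genes the median pairwise r was 0.866 over the 13 animals, which follows largely from their choice by r with MX1 there. The same median over the 34 member genes was 0.297, with single pairs from -0.848 to 0.934, and over all tested probe sets 0.018. With all 15 animals the member genes had a median pairwise r of 0.85.

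**Figure D2:**
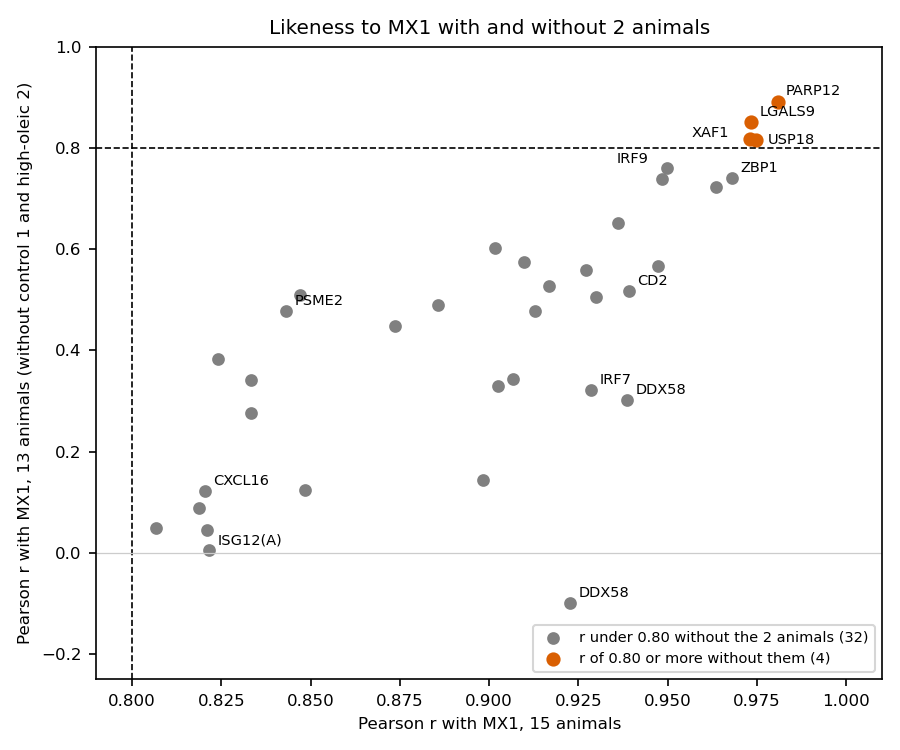
Pearson r with MX1 over all 15 animals (horizontal) and over the 13 animals other than control animal 1 and high-oleic animal 2 (vertical), 1 point per member probe set, with dashed lines at 0.80. The 4 orange points, PARP12, LGALS9, XAF1 and USP18, lie above the line, and the 32 grey points lie between -0.100 and 0.762.

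The 32 other members had a median r of 0.463 over the 13 animals, with a range from -0.100 to 0.762. IRF9, ZBP1, PSMB8 and LOC733579 came nearest, at 0.762, 0.740, 0.739 and 0.722. In IRF9, ZBP1 and LOC733579 the highest of the 13 was control animal 3, which was also the highest of the 13 in MX1, and in PSMB8 it was high-oleic animal 8. At the low end over these 13 together stood ISG12(A) at 0.00431, VWA5A at 0.0454 and the second DDX58 probe set at -0.100. Within the diets the values could differ. ISG12(A) had -0.253 in the 6 control animals and 0.743 in the 7 high-oleic animals. VWA5A had -0.041 and 0.107 in the same order, and the second DDX58 probe set 0.240 and -0.451. The median SD among the 13 animals was 0.43 log2 units over all members, against 0.52 over all tested probe sets. The members were chosen by an r that the animals highest in MX1 largely set, which favours little spread among these 13. Nothing is therefore read from this difference. The median SD was 0.62 for PARP12, LGALS9, XAF1 and USP18 and 0.40 for the 32 other members.

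High-oleic animal 8 stood apart from the other arrays, so the values were also computed without it. It was the highest of the 13 animals in 17 of the 36 members, and in 30.2% of all probe sets. The mean log2 signal of 7 control probe sets for spiked bacterial transcripts was 7.29 in this animal, the highest of the 15. The part of these differences in the members' values was not tested. Without it, over 12 animals, 5 members had an r of 0.80 or more with MX1, against 0.369% of all probe sets. PARP12, LGALS9 and XAF1 kept theirs at 0.885, 0.836 and 0.820, and USP18 was at 0.789. The main DDX58 probe set moved from 0.302 to 0.856 and ZBP1 from 0.740 to 0.823. In DDX58 high-oleic animal 8 was the lowest of the 15 animals, at 4.49, and in TNFSF10 too, at 4.95, whose r moved from 0.341 to 0.755. IRF7 and CXCL16 went the other way, from 0.321 and 0.122 to -0.0424 and -0.260.

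**Figure D3:**
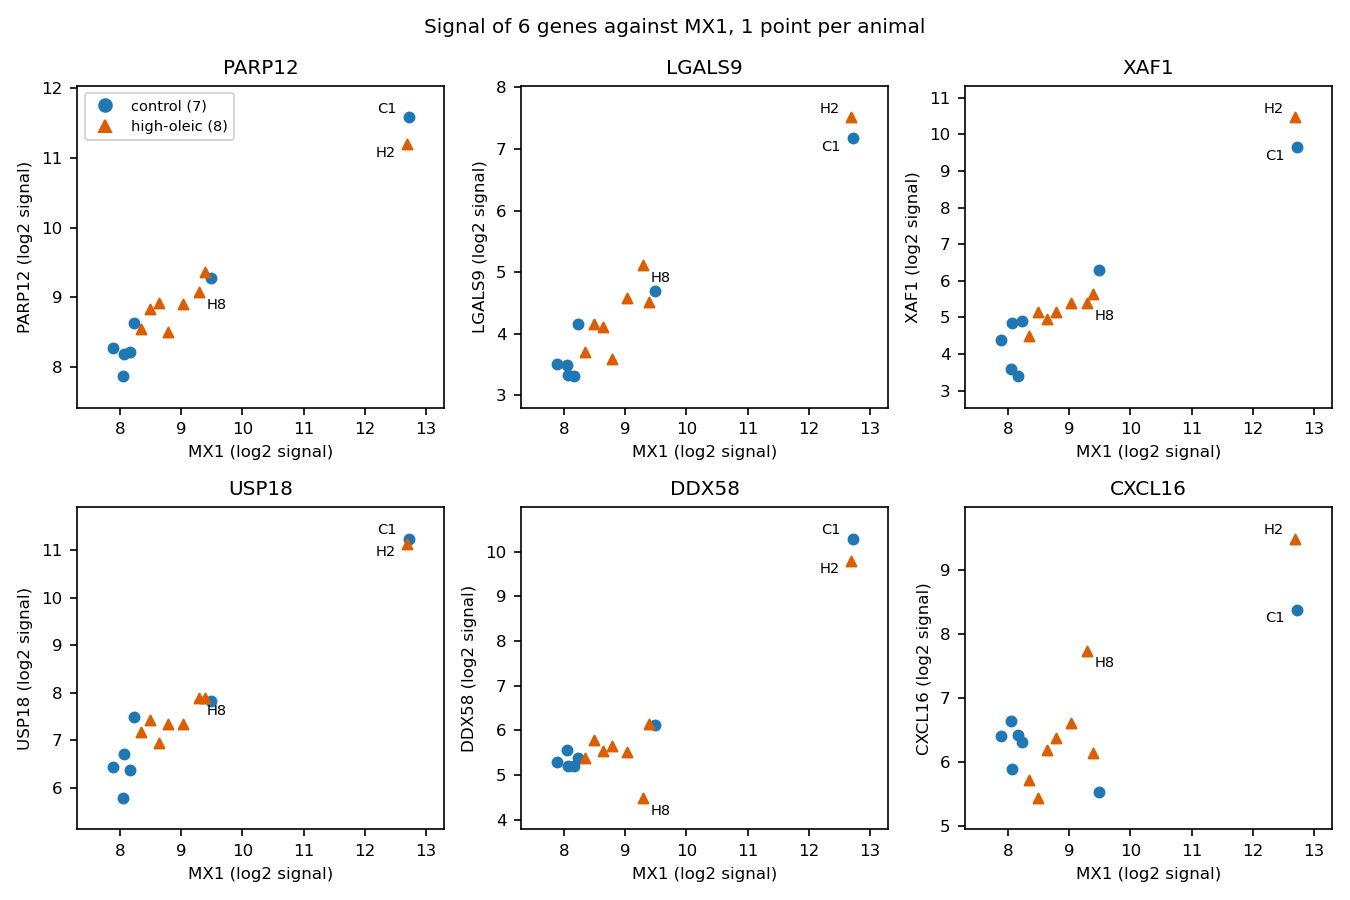
Log2 signal of 6 member genes against MX1 (log2 signal), 1 point per animal, with circles for the 7 control and triangles for the 8 high-oleic animals (C1, control animal 1; H2, high-oleic animal 2; H8, high-oleic animal 8). PARP12, LGALS9, XAF1 and USP18 follow MX1 among the 13 lower animals as well, while DDX58 and CXCL16 (main probe sets) show this less, with H8 low in DDX58 and high in CXCL16.

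Sensors of nucleic acid were among the highest members. ZBP1, a sensor of Z-form nucleic acid that can start necroptosis, had 4.80 to 11.32 in control animals (median 5.67) and 5.83 to 10.41 in high-oleic animals (median 6.04), with 7.19 as the highest of the 13 others. DDX58 encodes RIG-I, which detects viral RNA in the cytoplasm, and its main probe set had 5.21 to 10.29 in control animals (median 5.38) and 4.49 to 9.79 in high-oleic animals (median 5.59), with 6.14 as the highest of the 13 others. Its second probe set had 2.34 to 9.05 in control animals (median 2.97) and 2.11 to 7.95 in high-oleic animals (median 2.996), with 3.37 as the highest of the 13 others, a height of 67.3-fold over the median of the 13 in control animal 1. That probe set was dim in the 13 others, and the brighter main probe set had a height of 27.3-fold in the same animal. Both genes were thus clear of the other animals by more than 3 log2 units in both high animals, and in both genes control animal 1 was the higher. TREX1, the exonuclease that clears cytoplasmic DNA, showed less, with 6.81 to 8.42 in control animals (median 7.43) and 6.99 to 8.73 in high-oleic animals (median 7.40), with 7.89 as the highest of the 13 others.

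Of the transcription factors of the pathway only IRF7 and IRF9 were in the table, and both were members. IRF9 is the DNA-binding part of the complex that drives interferon-stimulated genes, and IRF7 is the factor that amplifies type I interferon production. IRF9 had 6.29 to 9.27 in control animals (median 6.74) and 7.02 to 9.16 in high-oleic animals (median 7.11), with 7.75 as the highest of the 13 others. IRF7 was dim in most animals and had 1.95 to 6.08 in control animals (median 2.18) and 1.68 to 6.80 in high-oleic animals (median 2.16), with 3.73 as the highest of the 13 others. That animal was high-oleic animal 8, while in IRF9 the highest of the 13 was control animal 3. Apart from high-oleic animal 8, IRF7 lay between 1.68 and 2.58 in these animals, so no order is read from so dim a signal. In the RefSeq gene table of assembly Sscrofa11.1, IRF9 and PSME2 are next to each other, and PSMB8 lies next to the left-out TAP1.

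PARP9, a partner of the ubiquitin ligase DTX3L in the interferon response, had 4.83 to 9.60 in control animals (median 5.97) and 5.91 to 8.96 in high-oleic animals (median 6.50), with 6.66 as the highest of the 13 others. Its r without the 2 animals was 0.478, lower than that of PARP12, and it was -0.625 in the 7 high-oleic animals other than number 2. All 3 measured genes of the ubiquitin-like and ADP-ribosylation list, USP18, PARP9 and PARP12, were therefore members, out of 18 written.

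Several members are proteins of nuclear bodies or act on chromatin. PML builds the nuclear bodies named after it, and it had 2.13 to 5.64 in control animals (median 2.51) and 2.36 to 5.13 in high-oleic animals (median 2.62), with 3.74 as the highest of the 13 others. In those 13 its signal was dim. DAXX, a histone chaperone found in those bodies, had 5.91 to 8.24 in control animals (median 6.58) and 6.12 to 8.20 in high-oleic animals (median 6.55), with 7.56 as the highest of the 13 others. SP110, a related nuclear body protein, had 4.52 to 6.85 in control animals (median 5.46) and 5.44 to 7.05 in high-oleic animals (median 5.60), with 6.03 as the highest of the 13 others. Among these 3 genes both high animals were clear of the rest by most in PML and by least in DAXX, the lower of them by 1.39 and 0.64, and by 0.82 in SP110. MORC3, an ATPase of the same bodies, was a member on both of its probe sets, the brighter with 7.45 to 10.34 in control animals (median 7.84) and 7.03 to 9.93 in high-oleic animals (median 7.98), with 8.33 as the highest of the 13 others. RSF1, a subunit of a chromatin remodelling complex, had 9.28 to 12.28 in control animals (median 10.16) and 8.89 to 12.77 in high-oleic animals (median 10.21), with 10.93 as the highest of the 13 others. ZCWPW1, a reader of histone methylation best known from meiosis, had 5.72 to 7.08 in control animals (median 5.91) and 5.02 to 7.29 in high-oleic animals (median 5.78), with 6.35 as the highest of the 13 others, close to the threshold at an r of 0.819.

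Other members act on RNA, on cell death or at membranes. MOV10, an RNA helicase that restricts retroviruses, had 4.55 to 7.33 in control animals (median 4.98) and 4.61 to 7.53 in high-oleic animals (median 5.28), with 6.22 as the highest of the 13 others. CASP1, the protease that activates interleukin-1 beta in inflammasomes, had 3.23 to 6.66 in control animals (median 3.47) and 3.32 to 8.69 in high-oleic animals (median 3.72), with 5.17 as the highest of the 13 others. TNFSF10, the death ligand TRAIL, had 5.53 to 9.54 in control animals (median 5.82) and 4.95 to 8.46 in high-oleic animals (median 6.70), with 7.21 as the highest of the 13 others. CASP1 was thus higher in high-oleic animal 2 and TNFSF10 in control animal 1. SHISA5, which promotes apoptosis from the endoplasmic reticulum, had 9.31 to 10.93 in control animals (median 9.60) and 9.40 to 11.29 in high-oleic animals (median 9.70), with 10.40 as the highest of the 13 others. ISG12(A), a small interferon-induced mitochondrial protein of the IFI27 family, had 10.96 to 13.22 in control animals (median 11.75) and 10.98 to 13.50 in high-oleic animals (median 11.50), with 12.21 as the highest of the 13 others and was the brightest member at a median of 11.45 in the 13. BLNK, an adaptor of the B cell receptor, had 6.46 to 8.35 in control animals (median 6.82) and 6.52 to 8.32 in high-oleic animals (median 7.20), with 7.89 as the highest of the 13 others.

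Antigen processing was represented by proteasome genes. PSMB8, a catalytic subunit of the immunoproteasome, had 6.04 to 8.52 in control animals (median 6.59) and 6.45 to 8.15 in high-oleic animals (median 6.77), with 7.18 as the highest of the 13 others. PSME2, a subunit of the proteasome activator that interferon gamma induces, had 8.87 to 9.91 in control animals (median 9.10) and 8.86 to 10.56 in high-oleic animals (median 9.06), with 9.96 as the highest of the 13 others, so that control animal 1 was not clear of high-oleic animal 8. Heights were modest, at 1.78 and 1.41 for PSMB8 and 0.89 and 1.54 for PSME2. Its partner PSME1 lay just outside the rule at an r of 0.7997. Also just outside were PSMF1, an inhibitor of the proteasome, at 0.798 and EHD4, which acts in endosome traffic, at 0.797. Just inside were the second MORC3 probe set at 0.807, ZCWPW1 at 0.819 and CXCL16 at 0.820, so no gap in r separated members from the next genes.

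Genes of leukocytes and chemokines made up a further group. CXCL16, a chemokine that is also a scavenger receptor, had 5.54 to 8.38 in control animals (median 6.41) and 5.44 to 9.49 in high-oleic animals (median 6.27), with 7.74 as the highest of the 13 others. PLAC8, a small cysteine-rich protein of many leukocytes, had 5.97 to 11.45 in control animals (median 7.15) and 5.52 to 12.52 in high-oleic animals (median 7.08), with 8.29 as the highest of the 13 others, and its height of 49.3-fold in high-oleic animal 2 was the largest of any member in that animal. CD2, an adhesion molecule of T and natural killer cells, had 2.52 to 5.91 in control animals (median 3.41) and 3.43 to 6.81 in high-oleic animals (median 3.56), with 4.07 as the highest of the 13 others. Its 2 high animals did not overlap with the rest. The remaining members were transporters and genes of varied or unstated function. SLC22A5, the carnitine transporter, had 4.24 to 7.26 in control animals (median 4.52) and 4.46 to 7.58 in high-oleic animals (median 5.20), with 5.53 as the highest of the 13 others. ATP10A, a phospholipid flippase, was higher by 2.03 and 2.14 than the median of the 13, TCIRG1, a proton pump subunit, by 1.51 and 1.99, and VWA5A by 1.48 and 1.35. RBMS2, an RNA-binding protein, had the smallest height of any member, at 0.72 and 1.25. The 2 genes without a proper name were LOC733579 and LOC100519098. LOC733579 had 8.37 to 12.39 in control animals (median 9.33) and 9.17 to 12.10 in high-oleic animals (median 9.66), with 10.04 as the highest of the 13 others, heights of 2.86 and 2.57, and LOC100519098 had heights of 2.87 and 1.86.

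Of the 34 member genes, 3 had another probe set in the table, which gives a second reading of the same RNA. The 2 of DDX58 and the 2 of MORC3 were all members. The other of TCIRG1 was not, at an r of 0.703, but it was also high in the 2 animals, at 7.57 and 7.96 against a range of 5.41 to 7.37 in the 13. The second MORC3 probe set had 4.65 to 8.32 in control animals (median 5.64) and 4.88 to 7.30 in high-oleic animals (median 5.77), with 6.30 as the highest of the 13 others. Probe sets of 1 gene are not replicates of an animal.

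The 2 high animals were then set against each other. Of the 36 members, high-oleic animal 2 was higher in 19 and control animal 1 in 17, where high-oleic animal 2 was higher in 46.1% of all probe sets, with a median difference of 0.15 (high-oleic animal 2 minus control animal 1). Over all probe sets this median was -0.070. CASP1 differed by 2.04, CXCL16 by 1.11, PLAC8 by 1.07 and CD2 by 0.90, all higher in high-oleic animal 2. The second DDX58 probe set differed by -1.09, TNFSF10 by -1.08, LOC100519098 by -1.01 and ZBP1 by -0.91, all higher in control animal 1. With 1 array per animal these differences had no replicate and no test. For scale, the SD among the 13 others was 0.52 for CASP1, 0.59 for CXCL16, 0.81 for PLAC8 and 0.69 for TNFSF10.

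**Figure D4:**
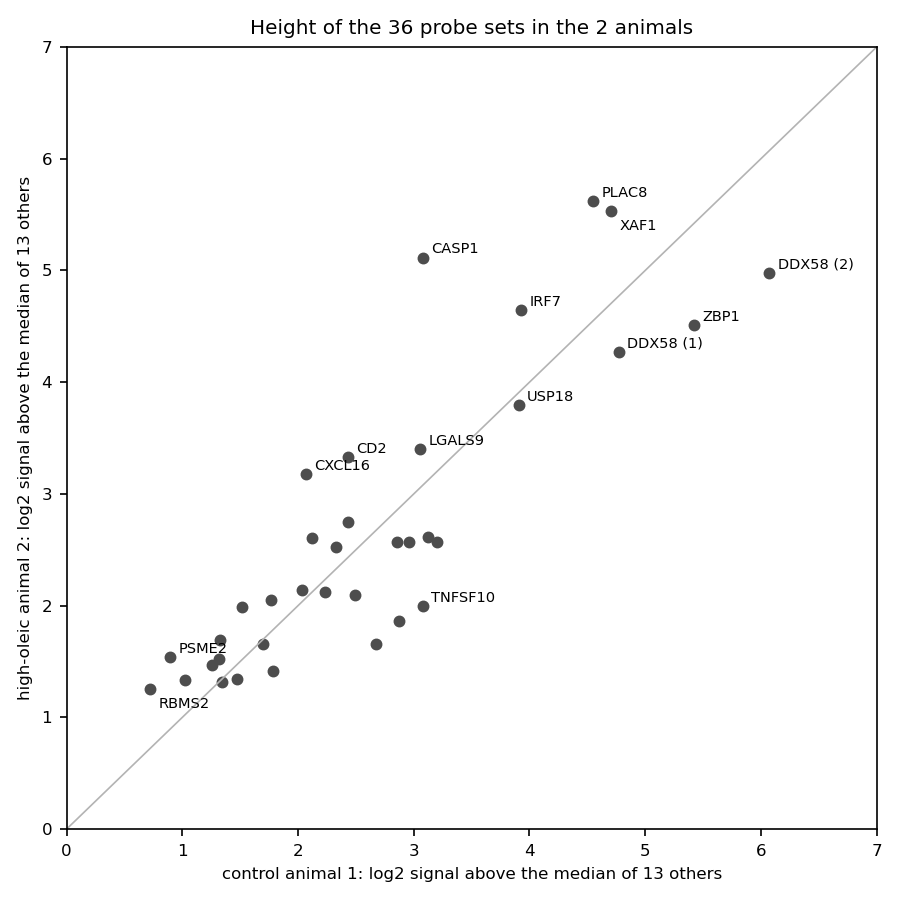
Height of each of the 36 member probe sets above the median of the 13 other animals (log2), in control animal 1 (horizontal) and high-oleic animal 2 (vertical), with the line of equal height. CASP1, PLAC8 and CXCL16 lie above the line and DDX58, ZBP1 and TNFSF10 below it.

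A wider list of 170 interferon-related genes, written with earlier results of these data known, set the members beside the rest of the pathway. Of its 46 genes in the table, 17 were members and 29 were not, and 17 of the 34 member genes were on no part of it. Of the 14 measured antiviral effectors 7 were members, and of the 12 measured antigen presentation genes 2 were. The transcription factors gave 2 of 2, the sensors 2 of 3, and the secreted and metabolic genes 1 of 11, LGALS9. JAK2, the only measured gene among interferons, receptors and their kinases, had an r of 0.266. Interferon genes themselves were not analysed here.

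Among the listed genes that were not members, the 6 with the lowest r were B2M, SLA-8, IL15, JAK2, CCL8 and CCL2. B2M, the light chain of class I molecules, ran opposite to MX1 on its brighter probe set, with an r of -0.701. On that probe set the 2 high animals were the lowest of all 15, at 12.31 and 12.44 against 12.93 to 13.93. A second B2M probe set gave 7.70 and 8.55, within the 7.17 to 8.62 of the others, so the probe sets disagreed. SLA-8, a class I heavy chain of a family with near-identical members, had 8.76 for control animal 1 and 6.51 for high-oleic animal 2, against 6.83 to 8.99 in the others, at an r of -0.0377. The cytokine IL15 had an r of 0.166, and the chemokines CCL8 and CCL2 had 0.273 and 0.301.

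Besides the members, 10 of the 20 probe sets of the left-out interferon genes other than MX1 had an r of 0.80 or more. All probe sets of GBP1, GBP2, IFIT2 and EIF2AK2 were below it. EIF2AK2 at 0.797, GBP2 at 0.793 and the nearest IFIT2 probe set at 0.780 came close. On every probe set of these 3 genes both high animals were above all 13 others. GBP1 had 0.245 to 0.463, and high-oleic animal 2 lay within the others there. An r of 0.80 or more was also found in 41 probe sets with no symbol and 1 with several. Without the 2 animals, 3 of the 41 unnamed probe sets remained at 0.80 or more. Of the left-out genes, ISG15, a ubiquitin-like protein, was at 0.895 over 13 animals and at 0.981 over 15. In the opposite direction 9 probe sets had an r of -0.80 or less, of which 1 was named. It was IPO11, a nuclear import receptor, with 6.76 and 6.66 in the 2 high animals and 7.27 to 8.22 in the others.

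Markers of other cell types were read beside the members, because CD2 and BLNK are leukocyte genes. Each list was scored by centring the log2 signal of every measured gene on its own mean and averaging the genes. Of 22 lymphocyte markers 5 were measured, and their score was 0.64 for control animal 1 and 1.05 for high-oleic animal 2, against -0.58 to 0.35 in the 13 others. Without CD2, a member and so chosen for being high in these animals, the score of the other 4 was 0.28 and 0.56 against -0.59 to 0.54. CD2 and GNLY were above all 13 others in both animals. CD3E, part of the T cell receptor complex, had 2.54 and 2.46, within the 2.01 to 3.59 of the others. It was dim in every animal, so little can be read from it. GNLY, granulysin of killer cells, had 7.69 and 8.07, above the 4.34 to 7.01 of the others. CD8A had 4.82 and 5.12 against a highest other value of 4.86, and JCHAIN, of plasma cells, lay within the others in both.

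The 7 measured of 16 macrophage markers scored -0.034 for control animal 1 and 0.76 for high-oleic animal 2, both within the -1.25 to 1.33 of the others. For 2 dendritic cell markers the scores were -0.071 and 0.62, within -1.97 to 2.09, and S100A9, the 1 neutrophil marker, was at -0.93 and -1.24, within -1.24 to 1.85. Thus no marker of these 3 lists was above all 13 others in both animals. Skeletal muscle markers were low in control animal 1, at -2.34 against -2.11 to 3.36, and smooth muscle markers high, at 1.77 against -0.53 to 1.57. In high-oleic animal 2 these were -0.39 and -0.48, within the others. Scores were -0.11 and 0.20 for the 4 measured endothelium markers (others -0.45 to 0.39), -0.012 and -0.54 for 4 of fibroblasts (others -0.68 to 0.75) and -0.98 and -0.94 for 3 of red cell precursors (others -1.05 to 1.20), each within the range of the others, but single markers were not. KDR, a vessel receptor, was above all 13 others in both animals, at 3.76 and 3.58 against 2.36 to 3.31, and TIE1, another vessel receptor, below them all, at 3.07 and 4.02 against 4.12 to 5.57. Of the red cell markers, ALAS2 and AHSP were also below all 13 in both, ALAS2 at 5.91 and 5.70 against a lowest other value of 5.96 and AHSP at 2.61 and 2.68 against 3.10. KDR was dim in every animal, and AHSP was dim in these 2. The fat cell score was -0.83 in control animal 1, below the -0.60 to 0.59 of the others, and 0.17 in high-oleic animal 2. The part of these cell types in the members' values was not tested. The spiked control signal was 5.19 in control animal 1, the lowest of the 15, and 5.67 in high-oleic animal 2, and the actin 3' minus 5' signal was 0.55 and 1.14, within -0.22 to 1.67.

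The diet labels were not used to choose the members, so the diets could be compared. No member passed the test for diet in limma with Benjamini-Hochberg adjustment over 3255 probe sets, where 0.0% of all probe sets passed. Before adjustment 0 of the 36 members had a p under 0.05, against 3.93% of all probe sets, and an exact permutation test per probe set, with 6435 splits, had 0 members there too. The median difference over members was 0.16 (high-oleic minus control, log2), against -0.025 over all probe sets, and 27 of 36 were positive against 46.8% of all. Among omissions of single animals, only that of high-oleic animal 2 turned the sign, with a median of -0.086 and 10 positive (46.4% of all probe sets). Without control animal 1 the median was 0.56 with 35 positive (48.0% of all) and 5 at an unadjusted limma p under 0.05 (3.75% of all). With live weight in the fit it was -0.26 with 3 positive (50.9% of all).

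Among members higher on the high-oleic diet the smallest p-values were those of SLC22A5, SP110 and CASP1. On the high-oleic diet SLC22A5 averaged 5.39 ± 0.95 (SD, n = 8) in log2 signal, against 4.92 ± 1.07 (SD, n = 7) on the standard diet, a difference of 0.47 (95% interval -0.47 to 1.41). SP110 differed by 0.28 (95% interval -0.38 to 0.94) and CASP1 by 0.57 (95% interval -0.80 to 1.95). Among members lower on the high-oleic diet, ZCWPW1 differed by -0.27 (95% interval -0.90 to 0.35), the second DDX58 probe set by -0.25 (95% interval -2.06 to 1.57) and ISG12(A) by -0.12 (95% interval -0.89 to 0.65). The adjusted p from limma was 0.999 for each of these 6, and every interval included 0. MX1 itself differed by 0.39 (95% interval -1.01 to 1.79), at an adjusted p of 0.999 in limma.

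Leaving out control animal 1 and high-oleic animal 2 narrowed the intervals, with a median standard error over members of 0.26 against 0.46 before. Of the 36 members 31 were then higher on the high-oleic diet, against 49.1% of all probe sets, with a median difference of 0.23 against -0.0047 over all. No member passed the adjusted test (limma, 0.0% of all probe sets), and 3 had an unadjusted p under 0.05 against 3.2% of all. These 3 were USP18 at 0.66, PARP9 at 0.63 and SLC22A5 at 0.54, each with an adjusted p of 0.999 in limma. In USP18 the 7 remaining high-oleic animals averaged 7.43 ± 0.35 (SD, n = 7) and the 6 control animals 6.77 ± 0.76 (SD, n = 6). These members vary together from animal to animal, so their signs are not separate pieces of evidence.

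**Figure D5:**
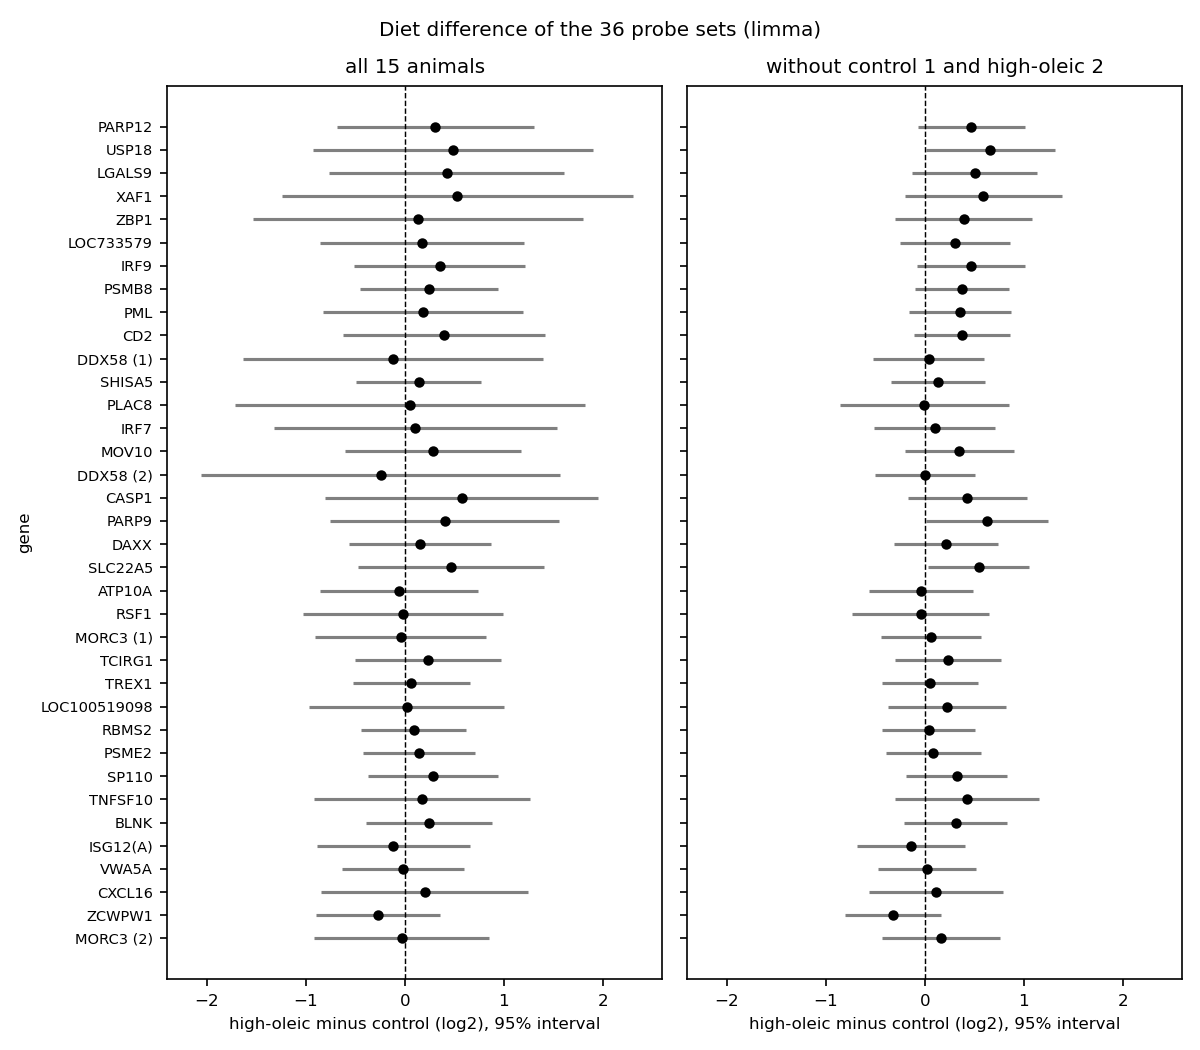
Difference between diets (high-oleic minus control, log2) of each of the 36 member probe sets with its 95% interval from limma, over all 15 animals (left) and without control animal 1 and high-oleic animal 2 (right). All intervals on the left include 0, and those on the right are narrower.

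Live weight was the other label that varied between animals. At fixed diet, all 36 members had a negative slope on live weight, against 45.6% of all probe sets (54.4% were positive), but none passed the adjusted test in limma, where 0.0% of all did. The members were chosen to share 1 profile, so here too their signs are not separate pieces of evidence. The median slope was -0.55 log2 units per 10 kg, against 0.037 over all probe sets. The smallest p-values were those of USP18 at -1.25 (95% interval -2.50 to -0.0029), CD2 at -0.90 (95% interval -1.80 to 0.0054) and XAF1 at -1.55 (95% interval -3.12 to 0.022), each with an adjusted p of 0.916 in limma. Of the 36, 1 had an unadjusted p under 0.05, against 3.81% of all. Control animal 1 weighed 112.5 kg, the second lowest weight on its diet, and high-oleic animal 2 weighed 107.0 kg, the third lowest.

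Without the 2 high animals the median slope over members was -0.10, with 27 of 36 negative against 43.6% of all probe sets and 3 at an unadjusted p under 0.05 (2.67% of all), and 0 passed the adjusted limma test (0.0% of all). Then USP18 was at -0.58, CD2 at -0.46 and XAF1 at -0.74. When control animal 5, of 133 kg, was left out, the median was -1.15, with a median standard error of 0.78. The slopes were thus negative in most members under each of these fits, and their size depended on these animals.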

How the data were processed

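The authors deposited 1 table of log2 values with 3272 probe sets and 15 arrays. The submitters' processing notes name GCOS and GCRMA. No source used here gives what each did, its version or its parameters. The 17 control probe sets were left out, which left 3255, of which 1455 had 1 gene symbol in the platform annotation, 27 had several and 1773 had none. Gene IDs were matched to the RefSeq table of Sscrofa11.1 for 33 of the 34 member genes, for names and gene order alone, and promoter sequences were not analysed here.

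Pearson r with MX1's only probe set in the table was computed with pandas 2.3.3 and numpy 2.4.6. Diet and live weight were fitted over all 3255 probe sets by lmFit and eBayes of limma 3.58.1 (R 4.3.3), two-sided, with Benjamini-Hochberg adjustment at 0.05 and no further normalization or filter. The fit was checked on simulated data. Fold values are powers of differences in deposited log2 signal. The members and gene lists were chosen with earlier results of these data known. All members are named, those nearest the threshold once, and for diet and live weight the 3 with the smallest p per direction. IPO11, KDR, TIE1, ALAS2, AHSP, the lymphocyte markers and the members singled out for high-oleic animal 8 or for a difference between the 2 high animals were named after their values were seen. List genes were matched by symbol or RefSeq synonym, with the brightest probe set per gene. The alternatives tried were rank correlation, other thresholds on r, median centring, quantile normalization, a filter on dim probe sets (mean under 4), the removal of diet means, the leaving out of animals, live weight as a covariate, the animal number as a block and an exact test.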

Additional observations from a re-analysis of the deposited data

Results flagged for a closer look

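MX1 and the 36 member probe sets were checked in each diet group for an animal far from the others, which gave 74 checks and 51 such values. Chance gives such a value in about 1 of 20 groups, but the members were chosen by an r that these same animals largely set, so the number is not a test. Of the 51, 29 were the value of control animal 1 and 22 that of high-oleic animal 2, all of them the highest of the group, and no other animal had one.

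In the control group the gap between control animal 1 and the next highest animal, in log2 units, was widest in the RNA sensor DDX58 and, among the values given here, narrowest in PSME2. It was 5.91 for DDX58 (second probe set), 4.17 for DDX58 (main probe set), 4.12 for ZBP1, 3.66 for PLAC8, 3.50 for IRF7 and 3.42 for USP18. It came to 3.22 for MX1, 3.08 for PML, 2.97 for PARP9, 2.83 for CASP1, 2.78 for LOC100519098 and 2.47 for LGALS9. It measured 2.44 for TNFSF10, 2.41 for CD2, 2.35 for LOC733579, 2.32 for PARP12, 2.29 for MORC3 (main probe set) and 2.19 for MOV10. The gap was 2.16 for SLC22A5, 1.76 for PSMB8, 1.74 for CXCL16, 1.60 for ATP10A, 1.58 for DAXX and 1.50 for TCIRG1. It then was 1.23 for BLNK, 1.19 for VWA5A, 1.11 for SHISA5, 0.94 for TREX1 and 0.65 for PSME2.

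On the high-oleic diet the gap between high-oleic animal 2 and the next highest animal was widest in XAF1. It was 4.85 for XAF1, 4.59 for DDX58 (second probe set), 4.23 for PLAC8, 3.66 for DDX58 (main probe set), 3.52 for CASP1 and 3.50 for ZBP1. It came to 3.30 for MX1, 3.25 for USP18, 3.07 for IRF7, 2.74 for CD2, 2.40 for LGALS9 and 2.32 for LOC733579. It measured 2.30 for PARP9, 2.04 for SLC22A5, 1.83 for PARP12, 1.60 for MORC3 (main probe set), 1.57 for ISG12(A) and 1.54 for IRF9. The gap was 1.53 for ATP10A, 1.38 for ZCWPW1, 1.02 for SP110 and 0.97 for PSMB8. High-oleic animal 8 was the next highest of its group in SHISA5, DAXX and PML, where high-oleic animal 2 was not singled out.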

How the results depend on the processing

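The member count was 36 in the reported setting and 26 to 54 when single animals were left out, with 26 when high-oleic animal 2, 29 when control animal 1 and 54 when high-oleic animal 8 was the one omitted. It was 9 with Spearman's rho in place of r, 57 at an r of 0.75 or more, 25 at 0.85 or more and 4 without the 2 animals highest in MX1. It was 43 after median centring, 36 after quantile normalization (34 of them shared), 31 with dim probe sets left out and 41 after the diet means were taken off. The 4 members that remained without the 2 animals became 2 at an r of 0.85 or more (PARP12 and LGALS9) and 2, the same genes, after the diet means were taken off. They became 6 with Spearman's rho (IRF9 and LOC733579 added), 6 after quantile normalization (IRF9 and ZBP1 added) and 5 at 0.75 or more. With high-oleic animal 8 left out too, an alternative chosen after seeing the data, there were 5, of which 3 were among the 4. No other MX1 probe set was in the table, so that alternative gave no value.

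For diet, limma placed 0 probe sets past the threshold in the reported fit and in all its alternatives, and the exact permutation test placed 0, with 136 at an unadjusted p under 0.05 against 128 in limma. For live weight there were 0, or 0 to 5 without single animals (5 when control animal 2 and 2 when high-oleic animal 7 was omitted), and 1 with no diet in the fit. No member was among the calls of any fit, with a smallest adjusted p of 0.880 for diet and 0.622 for live weight in limma. The animal numbers recur in both diets. Of the 7 same-numbered pairs, 4 deviated together with an r over 0.1, and r ran from -0.16 to 0.30. Of the control animals, 2 correlated best with the high-oleic animal of their own number. These values had no test, so they cannot decide whether the numbers pair the animals. The fit with the number as a replicate block gave 0 calls and a median difference over members of 0.12, against 0.16. That median was -0.086 to 0.56 without single animals.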
